A study of Homo sapiens with 6 samples.

Results

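The DNA glycosylases that open base-excision repair were followed at the RNA level in HEK293T cells given an adenine base editor. The set was fixed by gene name and held 10 genes (MPG, UNG, SMUG1, TDG, OGG1, MUTYH, NTHL1, NEIL1, NEIL2 and NEIL3) of the 62700 genes in the count table. All 10 were found by Ensembl ID, and all 10 were among the 20511 genes that passed the filter on low counts and were tested. HEK293T cells derive from human embryonic kidney and express the SV40 large T antigen. The 3 editor libraries came from cells given a SpRY-ABE8e plasmid by lipofection, together with guide RNAs, labelled SA and SD, against APP exon 17. The 3 GFP libraries came from cells given a GFP plasmid with the same reagent. All 6 libraries thus came from cells of a single line that had been transfected, and the GFP cells carried neither editor nor guides, so effects of the editor, the guides and the plasmid load cannot be told apart. The time between transfection and harvest is not given in the sources used here. Polyadenylated RNA was sequenced, and the question the series put to these genes was whether the editor altered expression of base-excision repair.

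The deaminase of the adenine base editor ABE8e turns adenine in DNA into hypoxanthine, which polymerases read as guanine. SpRY is an engineered Cas9 that accepts nearly any sequence beside its target. Base-excision repair begins when a glycosylase recognises a damaged or misplaced base and cuts the bond between base and sugar. The abasic site that remains is then opened by an endonuclease, filled by a polymerase and sealed by a ligase. Each glycosylase has its own range of bases: MPG removes hypoxanthine and alkylated purines, UNG, SMUG1 and TDG act on uracil or thymine, OGG1 and MUTYH guard against oxidised guanine, and NTHL1 and the NEIL enzymes remove other oxidised bases.

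The libraries held 110519197 to 152625595 counts in the editor group and 124681733 to 128988337 in the GFP group. Reads in mitochondrially encoded genes made up 4.62% to 6.39% of counts in the editor libraries and 3.42% to 4.49% in the GFP libraries. Editor libraries 2 and 3 were far closer to each other than were the remaining pairs within a group: over all genes with a read, the chi-square divided by its degrees of freedom was 2.44 for them, and 66.0 and 70.4 between each of them and editor library 1. They differed by more than sampling noise and were kept as separate libraries, and results were also computed with their counts summed. The target gene APP stood at 508, 416 and 412 CPM (counts relative to library size, TMM-scaled) with the editor, against 465, 489 and 530 CPM with GFP. Its groups overlapped, and a count per gene does not show whether exon 17 was skipped. Of 8 genes that mark an embryonic kidney epithelial line, KRT8, KRT18, PAX2, CDH2, VIM, EPCAM and CDH1 were detected at 1.09 CPM or more in every library, whereas LHX1 did not exceed 0.178 CPM. Markers of mature nephron, leukocytes and endothelium did not exceed 0.431, 0.1 and 0.123 CPM. The 8 line markers summed to 1246 to 1261 CPM in the editor libraries and 1443 to 1541 CPM in the GFP libraries. VIM, at 935 to 949.6 CPM in the editor libraries and 1125 to 1259 CPM in the GFP libraries, carried the lower sum. PAX2 (5.67 to 6.54 CPM with the editor, 4.95 to 5.08 CPM with GFP), EPCAM (1.65 to 2.42 and 1.09 to 1.58 CPM, editor and GFP) and CDH1 (10.1 to 10.7 and 7.51 to 9.03 CPM, editor and GFP) were higher in every editor library than in any GFP library. KRT8, KRT18, LHX1 and CDH2 overlapped between the groups. Of all genes tested, 8.63% were higher with the editor without overlap and 6.12% were lower without overlap. The fibroblast markers COL1A1, DCN and LUM summed to 23.8 to 25.4 CPM in the editor libraries and 19.7 to 23.3 CPM in the GFP libraries. COL1A1 alone overlapped between the groups (20.9 to 22.1 and 17.6 to 21.5 CPM, editor and GFP), and DCN and LUM did not. The groups did not overlap in either sum, and the part of these differences in the glycosylase values was not tested.

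The 10 genes were expressed at very unequal levels. Counts were divided by gene length and scaled to the same total in each library, as TPM, so that genes could be compared, with the length taken first as the union of all annotated exons. UNG was the most abundant, at 112, 144 and 143 TPM in the editor libraries and 143, 140 and 142 TPM in the GFP libraries, and ranked first in all 6. NEIL3 (46.8 to 64.4 TPM over the 6 libraries), MPG (44.9 to 64.5 TPM) and TDG (36.8 to 43.5 TPM) followed, and the ranges of NEIL3 and MPG overlapped. NTHL1 (15.9 to 23.8 TPM) and NEIL2 (16.3 to 19.9 TPM) did not differ beyond their spread. SMUG1 (8.39 to 12.3 TPM) and OGG1 (3.28 to 4.83 TPM) came next, without overlap with their neighbours in the order. MUTYH (0.848 to 1.43 TPM) and NEIL1 (0.712 to 1.25 TPM) were lowest and overlapped each other. UNG alone made up 37.5% to 43.0% of the summed TPM of the 10 genes in the editor libraries and 39.9% to 41.2% in the GFP libraries.

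This order rests in part on the gene models. Several genes have many annotated transcripts, and the exon union of OGG1 is 8733 bases where its median coding transcript has 1882. With the median coding transcript as the length, UNG stayed first (68.1 to 90.8 TPM) and OGG1 stayed eighth (7.59 to 11.6 TPM). TDG moved to second place (53.9 to 66.5 TPM) and SMUG1 to 23.3 to 32.7 TPM, overlapping NEIL3 and NTHL1, and MUTYH (0.926 to 1.65 TPM) and NEIL1 (1.22 to 2.21 TPM) again formed the lowest pair. The share of UNG in the summed TPM was then 25.8% to 29.7% in the editor libraries and 27.9% to 29.2% in the GFP libraries. The counts do not tell which transcripts were present.

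**Figure D1:**
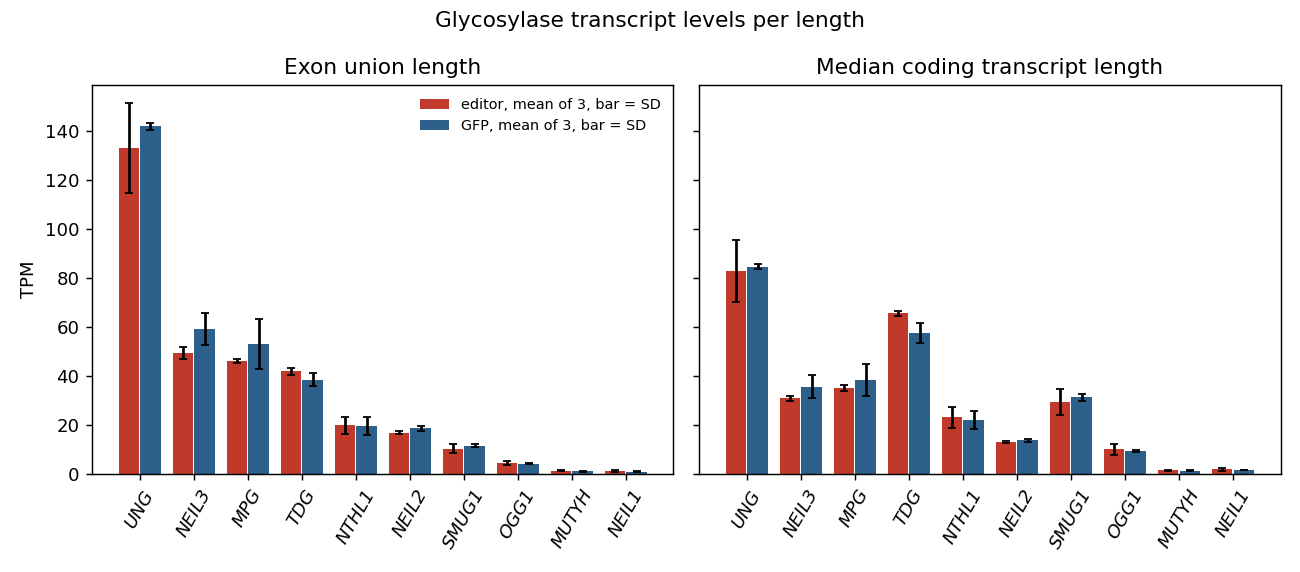
Mean TPM of the 10 glycosylase genes in the 3 editor libraries (red) and the 3 GFP libraries (blue), with the SD as error bar, for lengths taken as the exon union (left) or as the median coding transcript (right). UNG is highest in both panels, TDG is second only in the right one, and MUTYH and NEIL1 are at the bottom of both.

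None of the 10 genes changed past the threshold between editor and GFP libraries. By edgeR's quasi-likelihood test 0 of 10 had an adjusted p under 0.05, where 0.0244% of all genes tested did, 5 of them higher and 0 lower. At an unadjusted p under 0.05 the count was also 0 of 10, against 8.68% of all genes tested. NEIL3 passed this unadjusted level under some alternatives, and NEIL1 without editor library 1, both given with those genes. DESeq2 called 0 of 10 with 0.385% of all genes called, and limma-voom 0 of 10 with 0.0146%. Log2 fold changes, editor minus GFP, ran from -0.24 for NEIL3 to 0.26 for NEIL1, with 5 below 0 and 5 above, and their median was -0.03 beside 0.02 over all genes tested. The 95% intervals bound the size of a change in RNA level: for all 10 genes the interval of the editor to GFP ratio lay between 0.697 and 1.69, so that 0 of 10 intervals reached a 2-fold change, and those of MUTYH and NEIL1 reached a 1.5-fold change. Over the 12 alternative edgeR fits the bounds widened to 0.631 and 1.89, no interval reached a 2-fold change, and that of MPG also reached a 1.5-fold change in 6 of them, those without GFP library 2 or 3, without any 1 of the editor libraries, or with editor libraries 2 and 3 summed. The CPM of the groups did not overlap for 1 gene of the 10, TDG, which was higher with the editor. Of all genes tested, 8.63% were higher with the editor without overlap in CPM, 6.12% were lower without overlap, and 14.8% did not overlap in either direction. In TPM by exon union the groups of TDG overlapped. The labels number the replicates as biological without saying whether each was its own culture, so p-values here cover the spread among libraries and that spread may be technical. In bulk RNA, fewer cells that express a gene and less RNA of it per cell cannot be told apart.

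**Figure D2:**
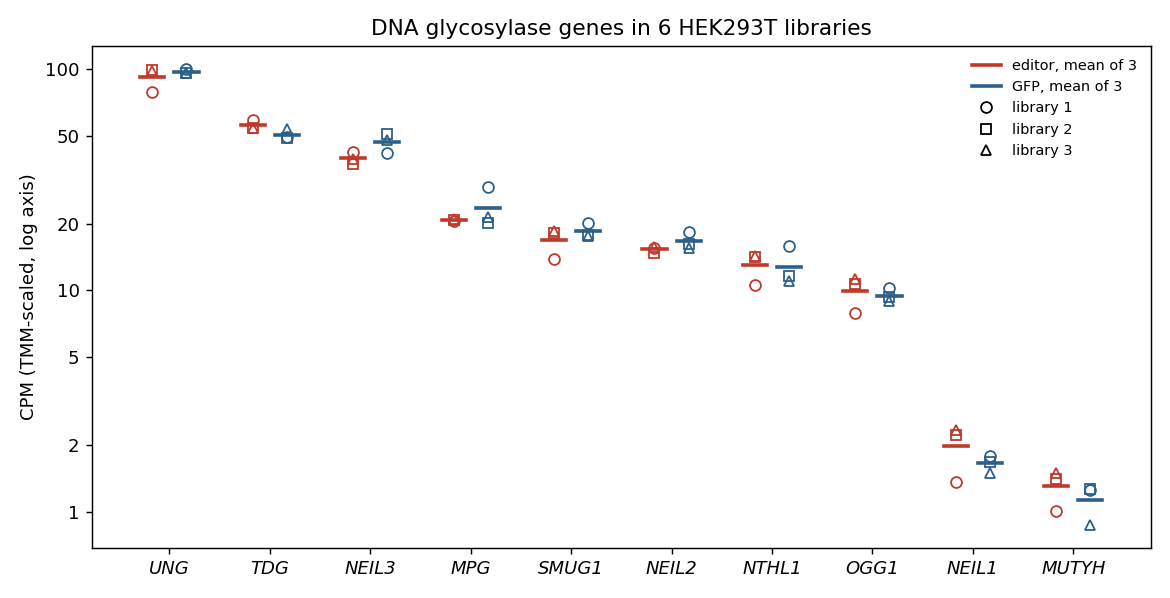
CPM on a log axis for each glycosylase gene, with the editor libraries (red) left of the GFP libraries (blue), libraries 1 to 3 as circle, square and triangle, and the group mean as a line. The groups overlap for all genes except TDG, at 54.0 to 58.8 CPM in the editor libraries and 48.7 to 53.6 CPM in the GFP libraries.

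MPG (ENSG00000103152.12, chromosome 16, 77007 to 85853 on the plus strand, GRCh38) encodes the alkyladenine glycosylase, the main human enzyme for the hypoxanthine that an adenine editor leaves in DNA. It stood at 20.6, 20.7 and 20.9 CPM in the editor libraries, against 29.2, 20.1 and 21.4 CPM in the GFP libraries. The editor libraries were nearly equal, and GFP library 1 alone was high. The means were 20.7 ± 0.153 CPM with the editor and 23.6 ± 4.96 CPM with GFP (SD, n = 3 each), and the log2 fold change was -0.19 (95% interval -0.52 to 0.15, SE 0.15), with an edgeR adjusted p of 0.744. Without GFP library 1 the log2 fold change was -0.02 (adjusted p = 0.939 by edgeR), and without GFP library 2 it was -0.29 (adjusted p = 0.654 by edgeR). The authors' deposited table gives MPG a log2 fold change of -0.15 with an adjusted p of 0.842.

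The genes most like MPG were sought by their values in these same libraries, so that a high GFP library 1 in them follows from the choice. Among 11483 protein-coding genes whose average log2 CPM reached 1, the smallest root mean square differences from MPG in centred log2 CPM over the 6 libraries were those of NDUFV1 (0.0226), ADPRS (0.0227) and RPL13 (0.0269). NDUFV1, a subunit of respiratory complex I, had 97.5, 98.0 and 97.5 CPM in the editor libraries and 132, 94.1 and 99.8 CPM in the GFP libraries. ADPRS, which removes ADP-ribose from serine, had 19.1, 18.7 and 18.5 CPM in the editor libraries and 26.6, 18.2 and 19.8 CPM in the GFP libraries. RPL13, a ribosomal protein, had 1311, 1331 and 1311 CPM in the editor libraries and 1843, 1334 and 1354 CPM in the GFP libraries.

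The uracil-directed enzymes include the most abundant member. UNG (ENSG00000076248.12, chromosome 12, 109097574 to 109110992 on the plus strand) removes uracil from DNA, and alternative starts give it a nuclear and a mitochondrial form. It had 78.9, 99.1 and 98.3 CPM in the editor libraries, against 100.2, 95.7 and 95.7 CPM in the GFP libraries. Editor library 1 was the low one, and the other 5 libraries lay within 95.7 to 100.2 CPM. The log2 fold change was -0.08 (95% interval -0.34 to 0.19, SE 0.12), with an edgeR adjusted p of 0.885, and it was 0.001 without editor library 1.

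A gene-level count of UNG sums the transcripts from both of its starts, and that of MPG likewise sums several first exons. Stretches of RefSeq sequence upstream of the starts are shown here for the UNG forms that the count merges, and for MPG as the member whose substrate the editor makes. They are GRCh38.p14, plus strand, limited to bases that lie in no exon of GENCODE release 29, so that they differ in length and stop short of the start. The MPG stretch ends 162 bases before the RefSeq start at 78225 and lies within the annotated span of the gene, and the UNG stretches end 23 bases before the upstream start and 54 bases before the downstream start. Capitals mark the motifs searched on both strands: the GC box GGGCGG, the CCAAT box CCAAT, the E2F-like TTTNNCGC, the E box CACGTG and the TATA box TATAAA.
MPG, chr16:77975-78062: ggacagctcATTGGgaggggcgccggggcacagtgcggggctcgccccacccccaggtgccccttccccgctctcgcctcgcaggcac
UNG, upstream start, chr12:109097347-109097573: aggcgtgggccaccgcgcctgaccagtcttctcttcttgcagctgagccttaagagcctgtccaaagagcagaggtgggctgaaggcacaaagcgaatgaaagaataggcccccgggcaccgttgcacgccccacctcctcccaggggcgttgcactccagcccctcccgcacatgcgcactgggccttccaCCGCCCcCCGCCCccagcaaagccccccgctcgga
UNG, downstream start, chr12:109097922-109098117: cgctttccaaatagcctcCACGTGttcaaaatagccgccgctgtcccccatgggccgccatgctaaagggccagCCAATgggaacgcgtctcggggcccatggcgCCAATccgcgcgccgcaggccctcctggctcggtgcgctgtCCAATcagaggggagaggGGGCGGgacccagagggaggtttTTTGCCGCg

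Motifs were counted over whole windows of 300 bases (250 before and 50 after a start), since the stretches shown are unequal parts of them. The window of the upstream UNG start had 2 GC boxes and 1 CCAAT box, and that of the downstream start had 3 GC boxes, 3 CCAAT boxes, 2 E boxes and 1 E2F-like match. The MPG window had 3 GC boxes, 1 CCAAT box and 1 E box. Such windows were counted for 8 of the member genes, with 13 windows in all. Member windows on chromosome 8, where NEIL2 lies, were left out, and SMUG1 had no window of this length. The GC box was in 10 of the 13 windows and in 45.0% of all 35116 windows of that length, and CCAAT in 9 of the 13 and in 34.6% of all. The E box was in 4 of the 13 (1 each of MPG, UNG, NTHL1 and TDG) and in 7.26% of all, the E2F-like motif in 2 of the 13 (1 each of UNG and NEIL1) and in 6.89%, and the TATA box in 0 of the 13 and in 11.5%. Windows of 1 gene can share bases. GC content of the 13 windows ran from 54.7% to 77.0%, the highest being that of MPG. A match describes letters in a window and is not evidence of a bound factor.

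SMUG1 (chromosome 12, 54121277 to 54189008 on the minus strand), a uracil glycosylase that also removes oxidised uracils, had 13.9, 18.1 and 18.5 CPM in the editor libraries, against 20.2, 17.8 and 17.5 CPM in the GFP libraries. Here too editor library 1 was the lowest of all 6. The log2 fold change was -0.14 (95% interval -0.44 to 0.17, SE 0.13), with an edgeR adjusted p of 0.804, and it was -0.04 without editor library 1. TDG (chromosome 12, 103965804 to 103988874 on the plus strand) removes thymine mispaired with guanine, and also the oxidised cytosines that TET enzymes make during demethylation. It had 58.8, 54.0 and 54.2 CPM in the editor libraries, against 49.2, 48.7 and 53.6 CPM in the GFP libraries. Every editor library lay above every GFP library in CPM, by 54.0 against 53.6 at the closest. In TPM by exon union the groups of TDG overlapped, at 43.5, 41.1 and 41.2 with the editor and 36.8, 37.3 and 41.6 with GFP. The log2 fold change was 0.14 (95% interval -0.08 to 0.36, SE 0.10), with an edgeR adjusted p of 0.705, and it was 0.08 without editor library 1. The processed pseudogene TDGP1 had 231 to 356 reads per library where TDG had 6068 to 8641, and how reads that match both were counted is not stated. UNGP1, UNGP3 and SMUG1P1 had at most 5 reads in any library.

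The enzymes against oxidised guanine were at the lower end of the range. OGG1 (chromosome 3, 9749944 to 9788219 on the plus strand) removes 8-oxoguanine paired with cytosine. It had 7.88, 10.7 and 11.3 CPM in the editor libraries, against 10.2, 9.3 and 8.9 CPM in the GFP libraries. The editor libraries held both the lowest and the highest value, and the log2 fold change was 0.08 (95% interval -0.27 to 0.43, SE 0.15), with an edgeR adjusted p of 0.915. MUTYH (chromosome 1, 45329163 to 45340470 on the minus strand) removes adenine paired with 8-oxoguanine. It was counted at 108, 183 and 239 reads in the editor libraries, against 162, 157 and 105 reads in the GFP libraries. This was 1.01, 1.41 and 1.5 CPM in the editor libraries, against 1.25, 1.26 and 0.871 CPM in the GFP libraries. The log2 fold change of MUTYH was 0.22 (95% interval -0.28 to 0.72, SE 0.22), with an edgeR adjusted p of 0.813, and it was 0.05 without GFP library 3 and 0.35 without editor library 1. Its interval was among the widest of the 10, at ratios of 0.821 to 1.65.

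NTHL1 (chromosome 16, 2039815 to 2047866 on the minus strand), which removes oxidised pyrimidines, had 10.6, 14.1 and 14.3 CPM in the editor libraries, against 15.8, 11.6 and 11 CPM in the GFP libraries. Library 1 was the lowest of the editor group and the highest of the GFP group. The log2 fold change was 0.03 (95% interval -0.37 to 0.43, SE 0.18), with an edgeR adjusted p of 0.973. It was 0.19 without GFP library 1 and -0.09 without GFP library 3.

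The 3 NEIL enzymes remove oxidised bases, also from single-stranded DNA, and NEIL3 is known besides for unhooking crosslinks between DNA strands at replication forks. NEIL3 (chromosome 4, 177309836 to 177362943 on the plus strand) had 42.0, 37.2 and 39.2 CPM in the editor libraries, against 41.9, 50.7 and 47.5 CPM in the GFP libraries. Editor libraries 2 and 3 lay below all GFP libraries, and editor library 1 was level with GFP library 1. The means were 39.5 ± 2.45 CPM with the editor and 46.7 ± 4.45 CPM with GFP (SD, n = 3 each), and the log2 fold change was -0.24 (95% interval -0.49 to 0.01, SE 0.11), with an edgeR adjusted p of 0.578. This was the smallest p of the 10, at an unadjusted p of 0.0545 by edgeR. DESeq2 gave NEIL3 an unadjusted p of 0.0485 and an adjusted p of 0.615, in a fit where 8.02% of all genes tested had an unadjusted p under 0.05. The unadjusted p of NEIL3 by edgeR was 0.0406 with RLE scaling and 0.0329 without the low-count filter, where 8.46% and 6.91% of genes were under 0.05. Without GFP library 1 the log2 fold change of NEIL3 was -0.33 (unadjusted p = 0.0077 and adjusted p = 0.38 by edgeR), with 11.9% of genes under 0.05 in that fit. Without editor library 1 it was -0.31 (unadjusted p = 0.0259 and adjusted p = 0.163 by edgeR), with 22.5% of genes under 0.05 in that fit. Without GFP library 2 the log2 fold change of NEIL3 was -0.18 (adjusted p = 0.707 by edgeR). The authors' deposited table lists -0.23 for NEIL3 with an adjusted p of 0.662.

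NEIL1 (chromosome 15, 75346955 to 75357114 on the plus strand) was counted at 145, 289 and 371 reads in the editor libraries, against 232, 208 and 180 reads in the GFP libraries. This was 1.36, 2.22 and 2.33 CPM with the editor, against 1.79, 1.67 and 1.49 CPM with GFP. Editor libraries 2 and 3 lay above all GFP libraries and editor library 1 below all of them. The log2 fold change was 0.26 (95% interval -0.24 to 0.76, SE 0.22), with an edgeR adjusted p of 0.764. Without editor library 1 it was 0.44 (unadjusted p = 0.0136 and adjusted p = 0.126 by edgeR), a fit in which 1% of all genes tested passed the threshold and 22.5% had an unadjusted p under 0.05. Leaving out editor library 2 gave 0.17, leaving out editor library 3 gave 0.12, and summing both gave 0.15. NEIL2 (chromosome 8, 11769639 to 11787346 on the plus strand) had 15.6, 14.7 and 15.7 CPM in the editor libraries, against 18.3, 16.2 and 15.6 CPM in the GFP libraries. Its values hardly varied among the editor libraries, and the log2 fold change was -0.12 (95% interval -0.37 to 0.12, SE 0.11), with an edgeR adjusted p of 0.775, and it was -0.07 without GFP library 1.

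**Figure D3:**
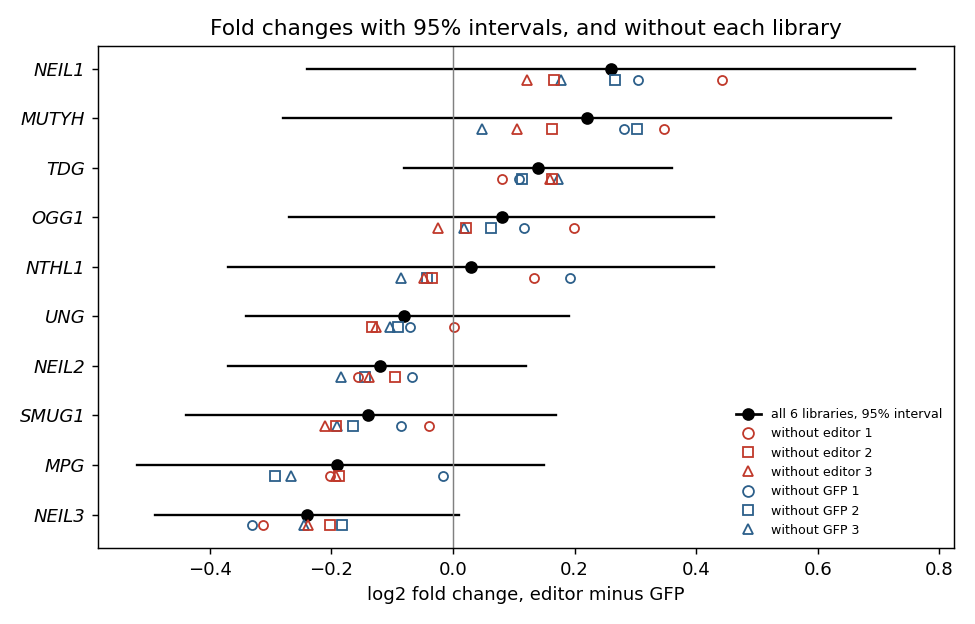
Log2 fold changes, editor minus GFP, with 95% intervals from edgeR (black), and the values when each library was left out (open symbols, red for editor and blue for GFP libraries). All intervals include 0, NEIL3 is lowest at -0.24 and NEIL1 highest at 0.26, and the NTHL1 value falls on either side of 0 depending on the library left out.

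For several genes a single library stood further from its own group than the groups stood from each other. Editor library 1 stood below the mean of editor libraries 2 and 3 by more than 0.3 on the log2 CPM scale for 6 of the 10 genes, a size chosen after the values were seen. These were UNG (-0.32), SMUG1 (-0.39), NTHL1 (-0.42), OGG1 (-0.48), MUTYH (-0.51) and NEIL1 (-0.74). For each of these 6 the size of this difference exceeded that of the log2 fold change between groups. For MPG (-0.02), NEIL2 (0.04), TDG (0.12) and NEIL3 (0.14) the difference was small or the other way. Of all genes tested, 27.4% lay more than 0.3 below in the same comparison, and the median over all genes was -0.02. Editor libraries 2 and 3 differed by at most 0.09 for any of the 10 genes. In the GFP group, library 1 stood above the mean of libraries 2 and 3 by 0.50 for MPG and 0.49 for NTHL1, the 2 members past 0.3 upward, where 21.2% of all genes were. Editor library 1 was also the shallowest library, at 110519197 counts, and had the lowest mitochondrial share of its group. The part of depth or mitochondrial share in these differences was not tested.

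**Figure D4:**
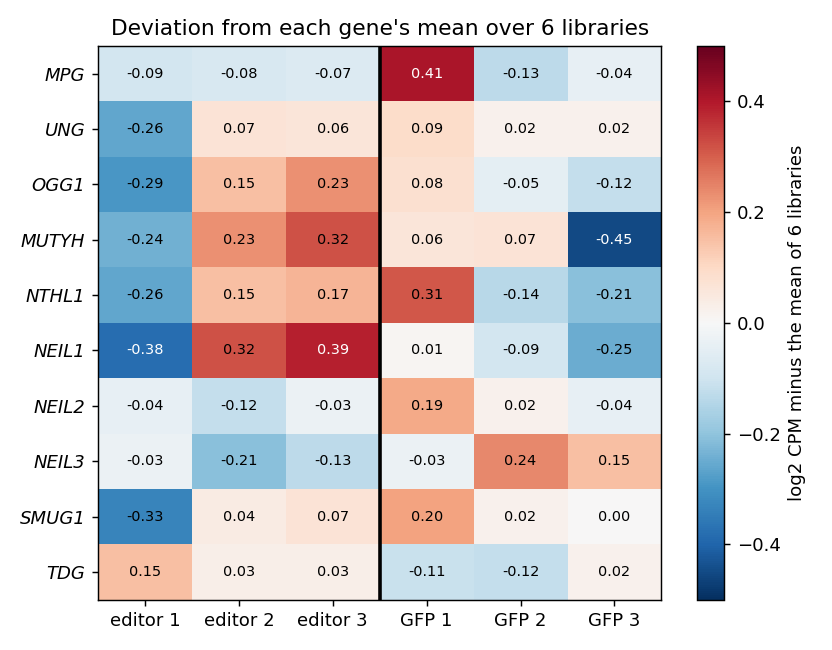
Deviation of log2 CPM from each gene's mean over the 6 libraries, editor libraries left of the black line and GFP libraries right of it. Blue cells in the column of editor library 1 (down to -0.38 for NEIL1) and red cells in that of GFP library 1 (up to 0.41 for MPG) show where single libraries stood apart.

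Exons of 6 member genes overlap exons of other genes, nearly always on the opposite strand, and the strand setting of the counting is not given in the sources used here. If strand was not used, reads from the shared bases cannot be assigned to either gene. NPRL3, a subunit of a regulator of mTORC1, shares 453 bases or 27.3% of the MPG exons and had a log2 fold change of 0.00 (SE 0.13). CAMK1, a calcium-dependent kinase, and TADA3, a histone acetyltransferase adaptor, share 25.0% and 4.08% of the OGG1 exons and stood at -0.19 (SE 0.11) and -0.13 (SE 0.11). MAN2C1, an alpha-mannosidase, shares 26.4% of the NEIL1 exons and had a fitted log2 difference of -0.31 (SE 0.14), a sign opposite to that of NEIL1. TSC2, a subunit of the tuberous sclerosis complex, shares 16.5% of the NTHL1 exons. TSC2 had 37.9, 71.0 and 69.0 CPM in the editor libraries, against 48.2, 59.4 and 45.3 CPM in the GFP libraries. TOE1, a deadenylase, shares 14.1% of the MUTYH exons and had a log2 fold change of 0.13 (SE 0.13). The non-coding partners (AC068338.3 and MIR631 at NEIL1, FLJ12825 and FAM242C at SMUG1) had 0.866 CPM or less and share at most 2.98% of the exons. None of the partners tested passed the threshold.

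The genes that act after or beside the glycosylases were taken as 4 lists. Of 38 genes 37 were tested, and by edgeR 0 rose and 0 fell at an adjusted p under 0.05, where 0.0244% of all genes tested passed. At an unadjusted p under 0.05 there were 3 of the 37, beside 8.68% of all genes tested. DESeq2 and limma-voom likewise called 0 of the 37, with 0.385% and 0.0146% of all genes called. Of the 20 downstream genes of base-excision repair 15 had a log2 fold change below 0 and 5 above, with a median of -0.13 beside 0.02 over all genes tested. Values in this list ran from -0.35 to 0.20, and whether the list shifted as a whole was not tested. The 4 genes named next had its smallest unadjusted p by edgeR, and all 4 lay below 0. LIG3, one of the ligases in the list, had 91.6, 65.6 and 63.0 CPM in the editor libraries, against 92.6, 88.7 and 100.1 CPM in the GFP libraries. Editor libraries 2 and 3 were low and editor library 1 was not, and the log2 fold change was -0.35 (SE 0.15, adjusted p = 0.572 by edgeR). The abasic-site endonuclease genes APEX2 and APEX1 stood at -0.31 (SE 0.13) and -0.19 (SE 0.11). POLL, one of the polymerase genes in the list, stood at -0.25 (SE 0.13). APEX1 was the 1 gene of the 20 whose groups did not overlap. It had 137, 145 and 147 CPM in the editor libraries and 179.7, 156 and 155 CPM in the GFP libraries. Of all genes tested, 14.8% did not overlap, and 6.12% were lower without overlap.

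The companions that handle deaminated or oxidised nucleotides held the smallest p of the 4 lists. ADA, which deaminates adenosine to inosine, had 25.0, 23.2 and 23.6 CPM in the editor libraries, against 35.5, 28.7 and 28.5 CPM in the GFP libraries. Its groups did not overlap, which held for 1 of the 8 genes of this list, beside 14.8% of all genes tested. The log2 fold change of ADA was -0.37 (SE 0.12, adjusted p = 0.512 by edgeR). ENDOV, an endonuclease that cuts at inosine, was at -0.23 (SE 0.14). ITPA and NUDT16, which hydrolyse inosine nucleotides, were at 0.24 (SE 0.17) and 0.28 (SE 0.16), both with editor library 1 below all GFP libraries and editor libraries 2 and 3 above all of them. MBD4, the remaining glycosylase for mispaired thymine and uracil, stood at -0.13 (SE 0.14). The 8 genes of this list had 4 values on either side of 0 and a median of -0.03.

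Enzymes that reverse alkylation damage directly act on lesions that overlap with those of MPG. ALKBH1, ALKBH2 and ALKBH3, which oxidise methyl groups off bases, were at -0.11 (SE 0.14), -0.07 (SE 0.12) and 0.08 (SE 0.11), and ASCC3, a helicase partner of ALKBH3, at -0.10 (SE 0.20). MGMT, which takes methyl groups off guanine, had 6, 4 and 6 reads in the editor libraries and 1, 0 and 0 reads in the GFP libraries, too few to be tested. Among the partners of TDG in demethylation, TET1 stood at -0.26 (SE 0.31), TET3 at 0.19 (SE 0.17), and the modifier gene SUMO2 at -0.09 (SE 0.10). TET1 varied more within groups than between them, with 176, 107 and 104 CPM in the editor libraries and 86.7, 192 and 184 CPM in the GFP libraries.

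**Figure D5:**
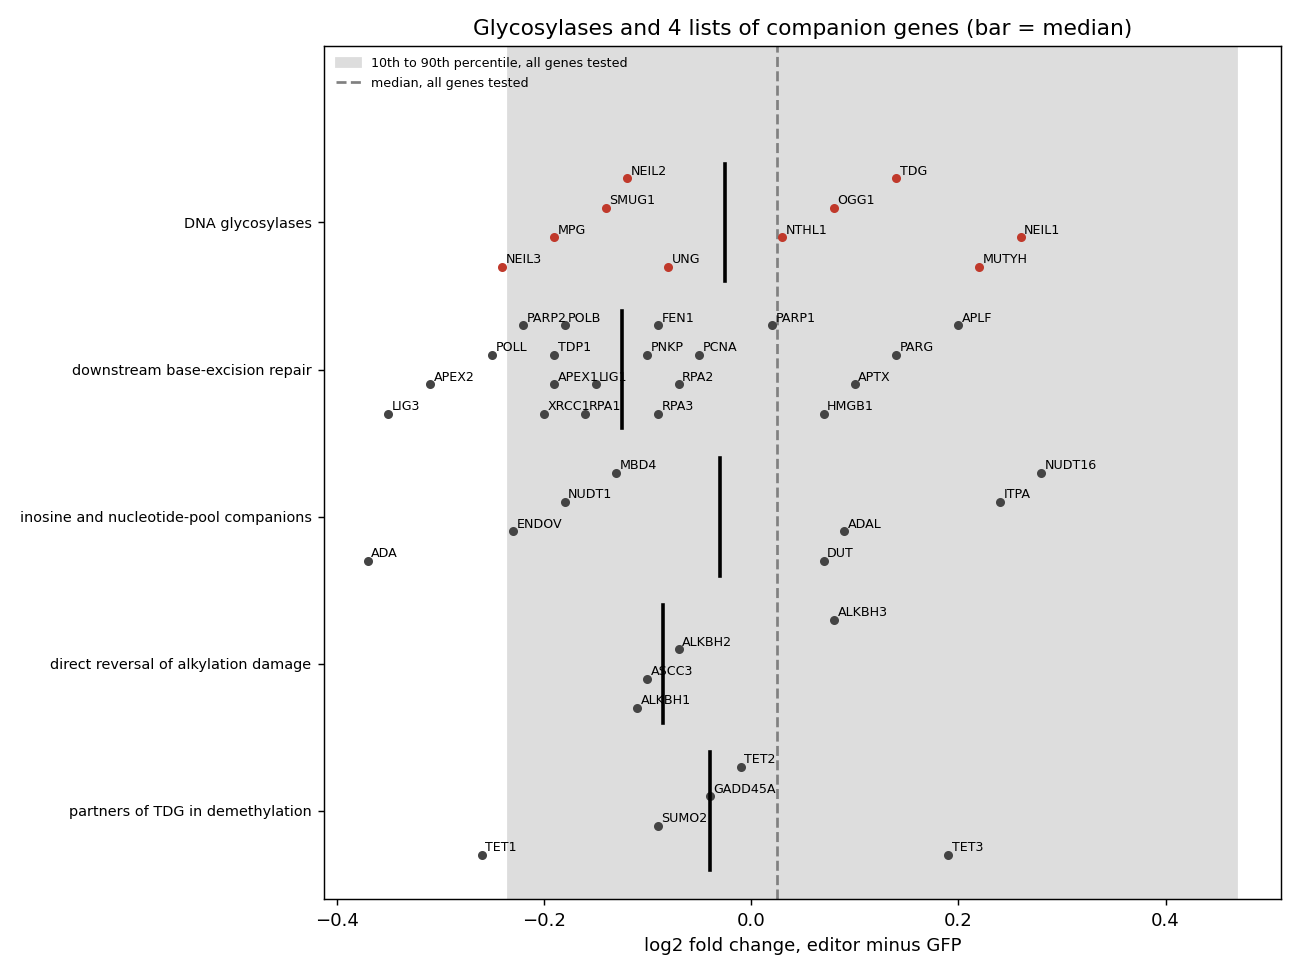
Log2 fold change, editor minus GFP, of the 10 glycosylase genes (red) and of the 37 tested genes of 4 companion lists (grey), with each list's median as a bar, over the 10th to 90th percentile of all genes tested (-0.23 to 0.47, shaded). The glycosylase median lies at -0.03 and that of the downstream genes at -0.13, and the lowest single values are ADA at -0.37 and LIG3 at -0.35.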

How the data were processed

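RNA of 6 HEK293T libraries was sequenced, 3 per group. The submitters' processing notes name HISAT2, featureCounts and limma but no versions, and no source used here states the build, annotation or strand setting of the counting. The authors deposited raw counts per gene for 62700 Ensembl IDs, 1 column per library. The editor columns bear the names in the sample descriptions, and the columns C_1 to C_3 were taken as GFP controls 1 to 3 by their number, with nothing else that links them. They also deposited a comparison table. Its upper 15273 rows were used, and the 47425 rows below, which hold count entries, were not.

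Counts were tested in edgeR 4.0.16 (R 4.3.3): TMM scaling, filterByExpr, quasi-likelihood F-test, Benjamini-Hochberg adjustment over 20511 genes, threshold 0.05. Standard errors are the log2 fold change over the square root of F. Log2 CPM used a prior count of 2. TPM used GENCODE release 29 (GRCh38) exon lengths, matched by ID. Promoter windows are RefSeq, GRCh38.p14. The alternatives changed the scaling (RLE, library totals), the filter (none, or 50 reads in 3 libraries), the tool (DESeq2 1.42.0, limma-voom from limma 3.58.1), the threshold (0.01), added the replicate number as a block, left out each library, or summed editor libraries 2 and 3. The second gene length was added after seeing the data. The tests were also run on simulated counts, drawn independently for each gene and library. That check does not cover a library that stands apart from its group, as editor library 1 did.

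The members, lists and tests were chosen with earlier results of these data known. The genes named are the members, APP, genes with overlapping exons, the 3 most like MPG, the markers and up to 4 per list with the smallest p. One gene of the lists is not reported here and was left out of their counts. MBD4, MGMT and the pseudogenes fall outside that rule and were picked with their values in view. With 3 libraries against 3, an exact permutation test has a smallest p of 0.1.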

Additional observations from a re-analysis of the deposited data

How the results depend on the processing

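The count of glycosylase genes past the threshold was 0 in the main fit and in all 15 alternatives, as was that of the 37 companion genes. None of the 140 gene values under the 14 alternative fits passed. The lowest adjusted p was 0.126, for NEIL1 without editor library 1, and 7 of the 10 genes kept their sign throughout. UNG, at -0.08, lay between -0.134 and 0.001 with a library left out, and was above 0 only without editor library 1. OGG1, at 0.08, ran from -0.025 to 0.199 and was below 0 without editor library 3. NTHL1, at 0.03, ran from -0.086 to 0.192, and was below 0 without editor library 2 (-0.034), editor library 3 (-0.047), GFP library 2 (-0.042) or GFP library 3 (-0.086), without the low-count filter (-0.026) and with editor libraries 2 and 3 summed (-0.040). For MPG the lowest and highest values with a library left out were -0.292 and -0.017. The cause of these shifts was not tested. Over all genes, the 5 calls became 79 with DESeq2, 3 with limma-voom, 307 without the low-count filter, 1 at an adjusted p of 0.01, 1 with the replicate block and 1 to 213 with a library left out, 213 without editor library 1. The replicate block called 0 glycosylase genes. The labels do not say that a shared number marks a shared culture or day, so the numbers were not taken as pairs. For libraries with the same number, deviations from the group mean of log2 CPM correlated at -0.0485, 0.173 and -0.237 across 20511 genes. For editor and GFP libraries with unlike numbers the correlations ran from -0.217 to 0.291. Deviations within a group sum to 0, which ties these correlations together, so they cannot decide whether the numbers mark pairs. MUTYH and NEIL1, counted at 105 to 371 reads per library, had the widest intervals. The SE of NEIL1 was 0.22 in the main fit and 0.14 without editor library 1. The part of read number or of single libraries in these widths was not tested.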
